A study of Homo sapiens with 34 samples.

Results

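MYC and the long non-coding RNA gene PVT1 lie next to each other on the long arm of chromosome 8, and their interval was described in CUT&RUN region lists of U2OS cells, a human osteosarcoma line. The interval ran from 100 kb before MYC to the end of PVT1 (chr8:127635434-128101256, build hg38), a length of 465.8 kb or 0.0154% of the span of the lists. All called regions that touched it were taken, which gave 429 of the 978086 regions in 20 libraries. The locus was picked because regions were called there, so their presence is a description and not a finding.

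CUT&RUN cuts and releases the DNA next to an antibody-bound protein. The 3 proteins profiled were SMARCA1, the motor of ISWI complexes that slide nucleosomes, OGG1, which cuts oxidised guanine out of DNA, and Orc6, a part of the complex that marks replication origins. SMARCA1 and OGG1 were each profiled in siOrc6 H2O2, siOrc6 NT, siGl3 H2O2 and siGl3 NT cells, and Orc6 in siGl3 H2O2 and siGl3 NT cells. There were 2 libraries in each of these 10 groups. siOrc6 is an siRNA against Orc6 given for 72 h, siGl3 its control siRNA, H2O2 a dose of 5 mM for 30 min and NT no treatment. All cells were synchronised with thymidine and collected 3 h after release. Nothing in the labels ties the replicates to separate cultures, so the spread between them may be technical.

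MYC encodes a transcription factor that pairs with MAX and drives genes of growth, ribosome production and cell division. PVT1 is transcribed from the stretch beyond MYC, hosts several microRNAs, and is often gained together with MYC in tumours. PVT1 also holds enhancers and a promoter that competes with MYC for them. Both genes lie in an interval that is rich in enhancers in many cancer cells. No RNA was measured in these lists, and neither copy number nor the IgG background at the locus was analysed here.

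MYC (gene ID 4609) takes 7.52 kb, chr8:127735434-127742951, and is the sole protein-coding gene of the interval. PVT1 (gene ID 5820) takes 306.7 kb, chr8:127794524-128101256, after a gap of 51.6 kb. The gene table holds no strand, exons or introns, so the start of each gene means its lower coordinate, where transcription of both genes begins. The interval holds 9 other annotated genes. CASC11 and LOC105375754 are long non-coding RNA genes before MYC. MIR1204, MIR1205, MIR1206 and MIR1207 are microRNA genes inside PVT1. LINC02912 and the pseudogenes RNVU1-32 and RNU4-25P also lie in the PVT1 stretch. No base sequence of the locus is shown.

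The MYC start lay inside a called region in 20 of 20 libraries. These regions ranked high in each list by total signal, which is the authors' summed signal of a region and grows with its width. Of the 20 regions, 16 were above the 99th percentile of their own list, and the lowest was at the 95.8th. In SMARCA1 siGl3 H2O2 the MYC region ranked 86 of 69927 in replicate 1 and 7 of 47072 in replicate 2, against 297 of 6992 and 138 of 11036 in SMARCA1 siGl3 NT. In SMARCA1 siOrc6 H2O2 the ranks were 52 of 35381 and 51 of 65093, against 51 of 14791 and 94 of 11012 in SMARCA1 siOrc6 NT. Lists of such different lengths give no measure of change in rank.

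OGG1 regions over the MYC start ranked 118 of 132408 and 215 of 73301 in siOrc6 H2O2, against 157 of 18759 and 22 of 33435 in siOrc6 NT. In siGl3 cells they ranked 75 of 132025 and 95 of 110679 with H2O2, against 205 of 17813 and 267 of 21204 without treatment. Orc6 regions over the MYC start ranked 221 of 52937 and 249 of 37154 in H2O2 cells, against 54 of 23375 and 92 of 63692 in NT cells. By the highest single value of signal in a region, the MYC region led all regions of the interval in 9 of the 20 libraries, 4 of them SMARCA1 and 5 OGG1. By that value its percentile within the lists had a median of 99.6. The lowest was 84.4, in SMARCA1 siGl3 NT replicate 1.

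The point of highest signal within the MYC region lay within 1 kb of the MYC start in 17 of 20 libraries. That held for 8 of 8 SMARCA1, 6 of 8 OGG1 and 3 of 4 Orc6 libraries. Across these 17 libraries the point fell between 0.12 and 0.70 kb past the start, with a median of 0.63 kb, at the beginning of the gene. In OGG1 siOrc6 H2O2 replicate 1 it lay 7.94 kb past the start. In OGG1 siOrc6 NT replicate 2 it lay 20.67 kb past the start, and in Orc6 siGl3 H2O2 replicate 2 it lay 20.71 kb past it, both beyond the gene's end.

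**Figure D1:**
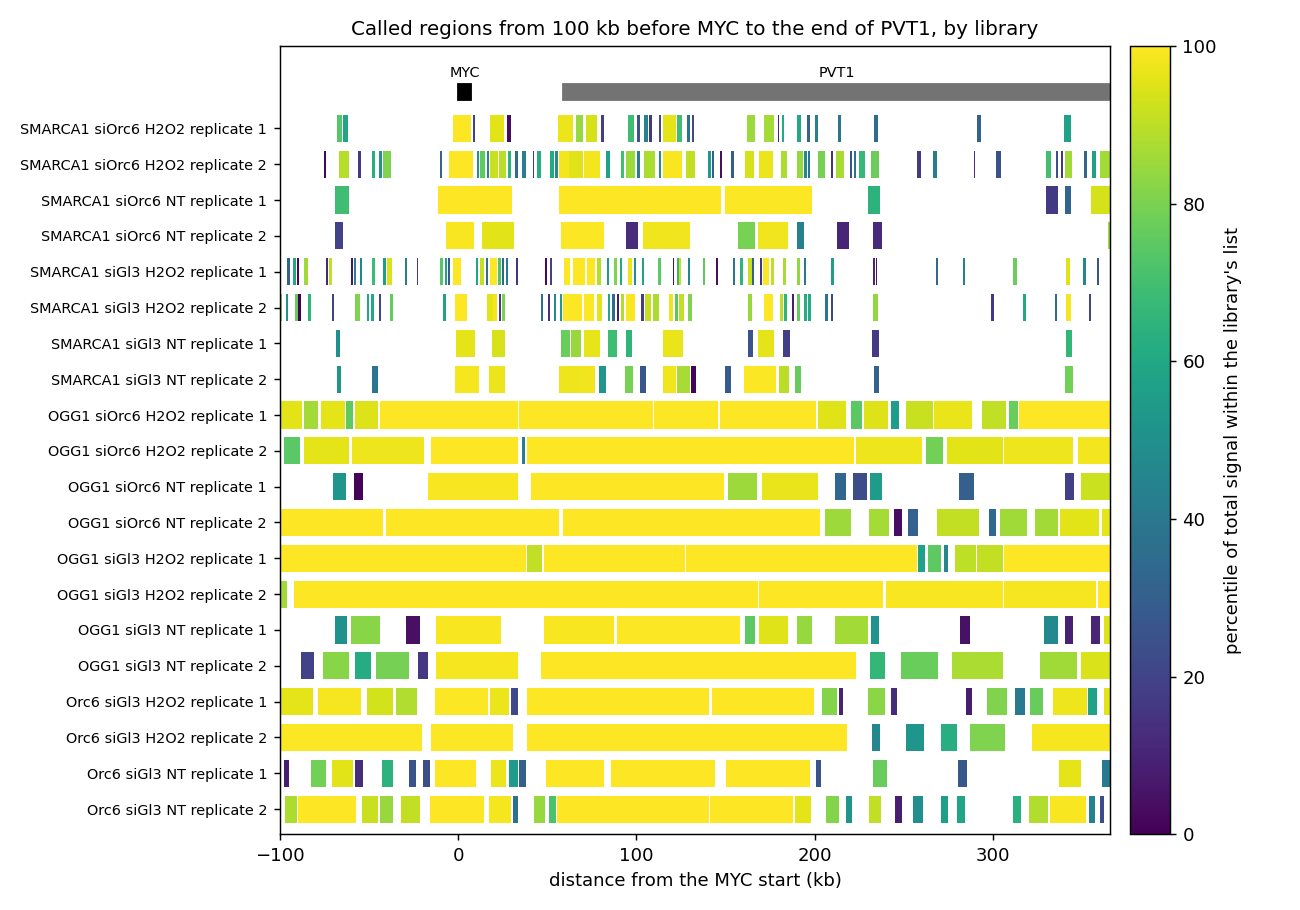
Called regions of each of the 20 libraries (rows) against distance from the MYC start in kb, with MYC and PVT1 drawn to scale on top and colour giving the percentile of total signal within the library's own list. SMARCA1 regions are mostly short, except in siOrc6 NT, where their median widths in the interval are 15.5 and 11.3 kb. OGG1 and Orc6 regions cover more of the interval than SMARCA1 regions, and every library has a region over the MYC start.

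The region over the MYC start varied in width from 4.78 to 138.1 kb. SMARCA1 regions there were 10.1 and 13.5 kb wide in siOrc6 H2O2, against 41.7 and 15.8 kb in siOrc6 NT. In siGl3 cells they were 4.78 and 7.04 kb wide with H2O2, against 10.8 and 13.8 kb without. Within each siRNA, both H2O2 libraries had a narrower MYC region than both NT libraries. The SMARCA1 lists as a whole showed the same order, with median widths of 2.08 and 1.88 kb against 6.57 and 5.16 kb in siOrc6 cells, and 1.27 and 1.47 kb against 3.79 and 3.23 kb in siGl3 cells.

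OGG1 regions over the MYC start were 77.6 and 48.9 kb wide in siOrc6 H2O2, against 50.5 and 97.0 kb in siOrc6 NT. In siGl3 cells they were 138.1 and 125.5 kb wide with H2O2, against 36.6 and 46.0 kb without. The 2 OGG1 groups did not overlap in siGl3 cells and overlapped in siOrc6 cells. How many other genes had the order of the siGl3 cells is not given here. Over whole OGG1 lists the H2O2 regions were the narrower ones. Their median widths were 3.35 and 3.62 kb against 6.59 and 7.49 kb in siGl3 cells, and 3.22 and 4.18 kb against 7.38 and 6.14 kb in siOrc6 cells. Orc6 regions were 30.1 and 45.7 kb wide with H2O2, against 23.4 and 30.4 kb without, and these overlapped. Neither widths nor covered bases were given a p-value, because the locus was chosen on its regions.

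The PVT1 start lay inside a region in 18 of 20 libraries. The exceptions were both SMARCA1 siGl3 H2O2 libraries, in which the nearest region edge was 0.323 and 0.017 kb away. OGG1 and Orc6 regions over the PVT1 start were 32.6 to 183.2 kb wide and were the region of largest total signal in the interval in 9 of 12 libraries (6 of 8 OGG1 and 3 of 4 Orc6). In the Orc6 libraries, all of siGl3 cells, these regions ranked 9 of 52937 and 15 of 37154 with H2O2, against 15 of 23375 and 4 of 63692 without. SMARCA1 regions over the PVT1 start were 7.93 and 5.79 kb wide in siOrc6 H2O2, against 91.3 and 24.5 kb in siOrc6 NT. In SMARCA1 siGl3 NT they were 5.02 and 12.0 kb wide.

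**Figure D2:**
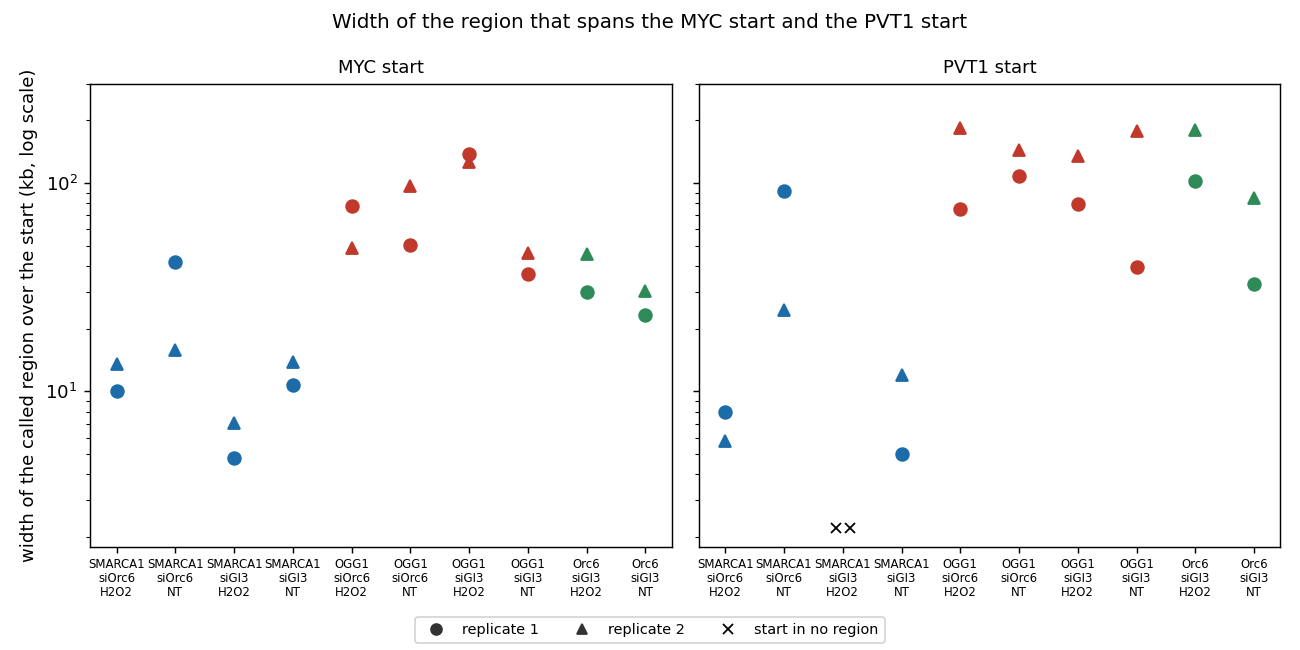
Width in kb (log scale) of the called region that spans the MYC start (left panel) and the PVT1 start (right panel) in each group, with circles for replicate 1, triangles for replicate 2 and crosses where the start lay in no region. At the MYC start SMARCA1 widths lie between 4.78 and 41.7 kb, Orc6 widths between 23.4 and 45.7 kb and OGG1 widths between 36.6 and 138.1 kb.

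The highest signal of the PVT1 regions mostly did not sit at the start of the gene. In 3 of the 18 libraries with a region it lay within 1 kb of the PVT1 start. These were 2 of 6 SMARCA1, 1 of 8 OGG1 and 0 of 4 Orc6 libraries. Within 3 kb of the start it lay in 4 of 6 SMARCA1, 1 of 8 OGG1 and 0 of 4 Orc6 libraries. A second point came back in many libraries. When points of highest signal were chained together at gaps of up to 0.5 kb, one cluster at 74.7 kb past the MYC start, 15.6 kb into PVT1, held 16 libraries (6 of SMARCA1, 7 of OGG1 and 3 of Orc6). Its members had a median percentile of total signal of 99.92 in their lists, and a lowest of 93.6.

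Of 199 such clusters in the interval, 5 held at least 10 libraries and 135 held a single one. Beside the clusters at the MYC start (17 libraries) and at 74.7 kb, they lay 66.6 kb before MYC (16 libraries), 234.5 kb past the MYC start (17 libraries) and 341.7 kb past it (16 libraries). By their median position the cluster before MYC lies in LOC105375754, and the last 2 lie in PVT1. Regions of these 3 clusters had median percentiles of 85.5, 64.2 and 90.6, with lows of 19.6, 4.89 and 9.27. The same place could hold a strong region in 1 list and a weak one in another. A cluster at 20.8 kb past the MYC start, between the genes, held 9 libraries (4 SMARCA1, 1 OGG1 and 4 Orc6).

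Every base of the interval was covered in at least 1 library, and 64.0% of it in at least 10. In all 20 libraries together 27.4 kb were covered, or 5.88%, in 19 stretches. The longest was chr8:127807848-127811498, 3651 bp inside PVT1, around the point 15.6 kb into the gene. The next was chr8:127734131-127737243, 3113 bp over the start of MYC. Another, chr8:127906933-127909978, covered 3046 bp of PVT1. The fourth, chr8:127794847-127797582, covered 2736 bp close to the PVT1 start and held MIR1204. Of the 10 longest, 7 lay in PVT1 and 1 at MYC, and 2 lay between the genes, 19.8 to 21.6 kb and 22.9 to 24.1 kb past the MYC start.

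Each antibody had its own extent of shared cover. The 8 SMARCA1 libraries shared 6.04% of the interval, with the same 3651 bp of PVT1 as the longest stretch. The 8 OGG1 libraries shared 44.0%, and their longest stretch, of 36.6 kb, held all of MYC and reached from 12.4 kb before its start to 24.2 kb past it. The 4 Orc6 libraries shared 46.0%, and their longest stretch, of 54.9 kb, lay in PVT1. The largest Orc6 stretch at MYC was 23.3 kb long. Fewer libraries share more bases by number alone, so these shares are not set against each other for Orc6.

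**Figure D3:**
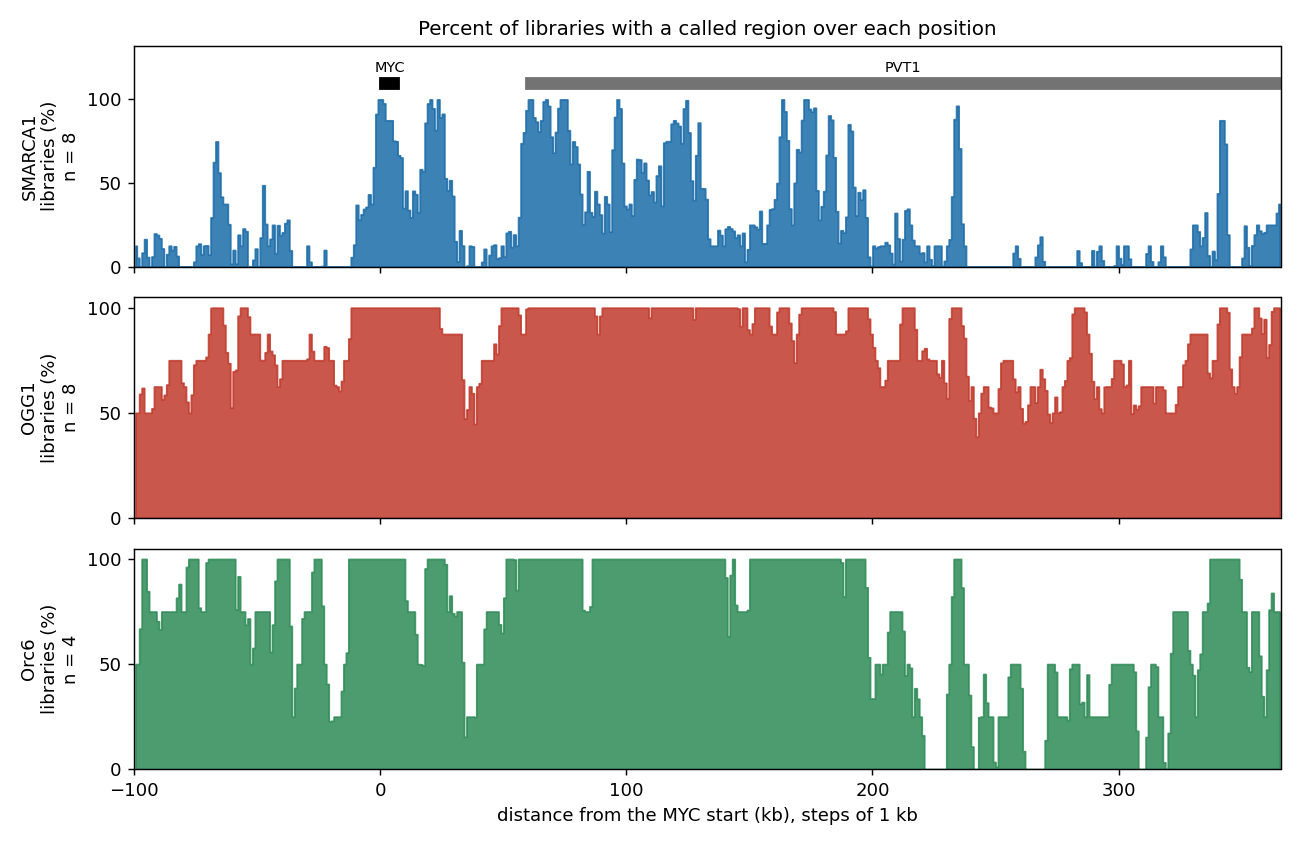
Percent of libraries with a called region over each position, averaged in steps of 1 kb, against distance from the MYC start in kb, for SMARCA1 (n = 8), OGG1 (n = 8) and Orc6 (n = 4). SMARCA1 reaches 100% at narrow places at MYC, between the genes and in the near part of PVT1, while OGG1 and Orc6 reach 100% over long stretches there and over short ones in the far part.

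Cover of PVT1 was uneven along its length. The gene was split at its middle into a near part, next to MYC, and a far part of 153.4 kb each, and the near part had the larger covered share in 20 of 20 libraries, by 2.16 to 71.2 points. In SMARCA1 siOrc6 cells the near part was covered to 38.4% and 57.4% with H2O2, against 89.6% and 56.5% without. The far part was covered to 6.28% and 26.5% with H2O2, against 18.4% and 8.59% without. In SMARCA1 siGl3 cells the near part stood at 33.8% and 43.5% with H2O2, against 35.96% and 50.1% without, and the far part at 6.65% and 7.31%, against 5.01% and 4.43%.

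OGG1 covered the near part of PVT1 to between 84.1% and 100% in all 8 libraries, and its libraries differed in the far part. The far part was covered to 88.1% and 94.2% in siOrc6 H2O2, against 32.6% and 72.7% in siOrc6 NT. In siGl3 cells it was covered to 93.9% and 97.5% with H2O2, against 32.1% and 69.3% without. All 4 H2O2 libraries were above all 4 NT libraries there. No windows of that length were counted, but 60.2% of windows as long as the whole interval showed this OGG1 order. Orc6 covered the far part to 45.7% and 60.8% with H2O2, against 20.1% and 45.1% without. The split was chosen after the regions were seen and was not tested.

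The microRNA genes of PVT1 differed in how many libraries reached them. MIR1204, next to the PVT1 start, had a region within 1 kb in 20 of 20 libraries. MIR1205 had one in 7, MIR1206 in 7 and MIR1207 in 8. Of the 8 SMARCA1 libraries, 1 had a region at MIR1205, 0 at MIR1206 and 1 at MIR1207. LINC02912 had one in 15 of 20 libraries, of which 4 were SMARCA1, 8 OGG1 and 3 Orc6. For comparison, MYC, PVT1, CASC11 and LOC105375754 had a region within 1 kb in all 20 libraries, as did 4.25% of the 59098 genes in the table and 8.79% of the 19974 protein-coding ones.

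With 4 of 4 against 4 of 4 libraries, MYC and PVT1 could not differ in occupancy between H2O2 and NT or between siOrc6 and siGl3 cells, for SMARCA1 or for OGG1. Over all genes, 2.48% had a region in all 4 H2O2 and no NT library of SMARCA1, and 8.48% had that pattern in OGG1. With siOrc6 against siGl3 the pattern was held by 1.34% of genes in SMARCA1 and by 0 genes in OGG1. The measure that could vary at the locus was the share of its bases inside regions.

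SMARCA1 covered 21.1% and 41.0% of the interval in siOrc6 H2O2 libraries (replicates 1 and 2), against 46.8% and 30.0% in siOrc6 NT libraries. In siGl3 cells it covered 22.9% and 25.1% with H2O2, against 18.3% and 24.6% without. The groups overlapped under both siRNAs in these full lists. The rest of the genome was covered to between 1.05% and 5.22% in these 8 libraries. The interval stood 6.92 to 9.72 times above it with H2O2 and 11.2 to 17.5 times without. Against the rest of chromosome 8, which was covered more, it stood 3.99 to 7.35 times above with H2O2 and 8.67 to 10.1 times without. By these ratios, unlike the shares, the treatments did not overlap. How many windows show that order of ratios is not given here.

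OGG1 covered 94.2% and 95.4% of the interval in siOrc6 H2O2, against 58.0% and 89.4% in siOrc6 NT. In siGl3 cells it covered 97.5% and 98.1% with H2O2, against 55.0% and 80.2% without. All 4 H2O2 libraries were above all 4 NT libraries, an order that 60.2% of 5989 windows of the same length across the genome also showed. The rest of the genome was covered to 24.6% and 18.4% in siOrc6 H2O2, against 7.01% and 9.48% in siOrc6 NT, and to 27.2% and 25.6% in siGl3 H2O2, against 5.46% and 8.05% in siGl3 NT.

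Orc6 covered 75.7% and 84.3% of the interval with H2O2, against 55.0% and 72.8% without. Both H2O2 libraries were above both NT libraries, as in 36.7% of the windows. Its cover of the rest of the genome was 11.2% and 13.2% with H2O2, against 4.71% and 9.55% without. In each of the 20 libraries the interval had a larger covered share than 97.7% or more of the windows, and at most 99.8%. The windows hold sequence of every kind, so this places the locus and tests nothing.

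**Figure D4:**
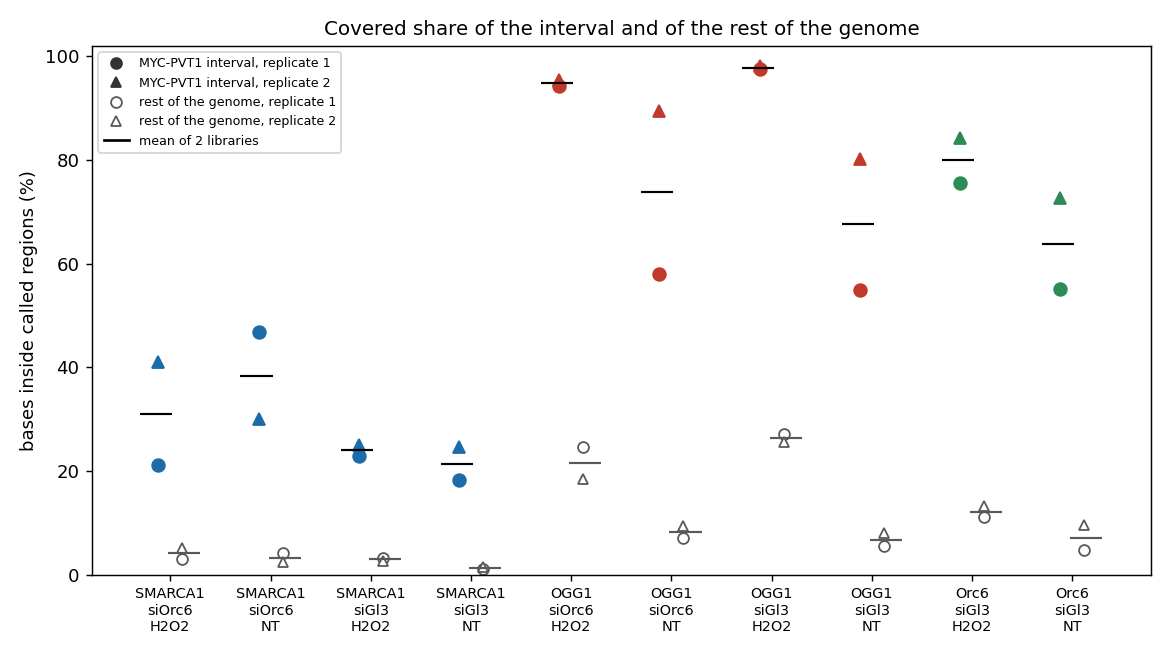
Percent of bases inside called regions in the interval of MYC and PVT1 (filled symbols) and in the rest of the genome (open symbols), for each library of the 10 groups, with circles for replicate 1, triangles for replicate 2 and bars for the mean of 2 libraries. OGG1 reaches 94.2% to 98.1% in its 4 H2O2 libraries and 55.0% to 89.4% in its 4 NT libraries, while the SMARCA1 groups overlap in these full lists.

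The covered share with H2O2 was set against that without over 5 strata, each 1 antibody under 1 siRNA. The mean share was 65.5% in H2O2 libraries and 53.0% in NT libraries, 12.5 points higher with H2O2 and higher in 9 of 10 same-numbered pairs. The lists differ in length, so the comparison was repeated with each list held to the same covered bases, 31.8 Mb of its regions of highest total signal. The difference over the 5 strata was then 0.36 points, and positive in 4 of 10 pairs. This cut left between 177 and 13248 regions a list.

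For OGG1 alone the mean share was 96.3% with H2O2 and 70.7% without, a difference of 25.6 points that was positive in 4 of 4 pairs. At equal covered bases OGG1 covered 32.8% and 49.8% of the interval in siOrc6 H2O2, against 34.1% and 64.1% in siOrc6 NT. In siGl3 cells it then covered 74.4% and 55.8% with H2O2, against 31.1% and 47.9% without. The means were 53.2% with H2O2 and 44.3% without, a difference of 8.91 points, with overlapping groups and 2 of 4 pairs positive, both of them in siGl3 cells. This cut kept few OGG1 regions, 270 and 251 in siOrc6 H2O2 and 415 and 637 in siOrc6 NT. In siGl3 cells it kept 183 and 177 with H2O2, and 729 and 410 without. A single wide region can therefore move these values strongly. With 6992 regions a list, those with the most total signal and as many as the shortest list holds, the OGG1 difference was 26.0 points and the groups overlapped. After the share of the rest of the genome was taken off, the OGG1 difference was 9.18 points and was positive in 3 of 4 pairs. The means were 72.3 with H2O2 and 63.2 without. As a ratio to the rest of the genome the direction was the opposite. The OGG1 ratio was 3.83 and 5.19 in siOrc6 H2O2, against 8.28 and 9.43 in siOrc6 NT. In siGl3 cells it was 3.58 and 3.83 with H2O2, against 10.1 and 9.96 without. The direction relative to the genome therefore depended on the measure. OGG1 siOrc6 NT replicate 2 had the highest cover of the 4 OGG1 NT libraries, with 98.1% of the 100 kb before MYC against 29.2% in replicate 1 of its group. In OGG1 siGl3 NT that stretch was covered to 42.9% in replicate 1 and 67.6% in replicate 2. Without OGG1 siOrc6 NT replicate 2 the OGG1 difference was 33.5 points in share and 16.4 points relative to the rest of the genome. Within batch 1 the difference relative to the rest of the genome was 19.7 points and within batch 2 it was -1.31 points.

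For SMARCA1 the mean share was 27.5% with H2O2 and 29.9% without, a difference of -2.41 points. It was -10.5 points within batch 1 and 5.72 points within batch 2, and it turned positive without SMARCA1 siOrc6 H2O2 replicate 1 (2.56 points) or SMARCA1 siOrc6 NT replicate 1 (1.81 points). These values rest on lists of very different length. At equal covered bases SMARCA1 covered 11.4% and 12.7% of the interval in siOrc6 H2O2, against 41.4% and 24.2% in siOrc6 NT. In siGl3 cells it then covered 10.9% and 17.2% with H2O2, against 18.3% and 21.3% without. All 4 H2O2 libraries were below all 4 NT libraries, with means of 13.1% and 26.3%, a difference of -13.2 points. That order was found in 1.49% of the windows at equal covered bases. Windows without cover in an NT library could not show it. In SMARCA1 siGl3 NT replicate 1, which this cut left whole, the median window had 0% cover. The 1.49% is therefore no measure of rarity among windows that could show the order.

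With 6992 regions a list, those with the most total signal, the SMARCA1 means were 12.3% with H2O2 and 27.5% without, a difference of -15.2 points. With the 6992 of highest maximum signal SMARCA1 covered 6.75% to 9.19% with H2O2 and 18.3% to 43.1% without, a difference of -17.8 points in the means. Under both cuts all 4 H2O2 libraries were again below all 4 NT libraries, as in 6.21% and 6.46% of the windows. Here too, windows without cover in an NT library could not show the order. With the upper 50% of each list by total signal the difference was -5.01 points and the groups overlapped. SMARCA1 regions were narrower with H2O2, so lists of equal number do not hold equal bases. At equal covered bases the difference was -13.2 points. What part width has in these differences was not tested.

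The number of SMARCA1 regions differed as well. SMARCA1 libraries held 30 and 59 regions of the interval in siOrc6 H2O2, against 8 and 12 in siOrc6 NT, and 64 and 53 in siGl3 H2O2, against 14 and 18 in siGl3 NT. All 4 H2O2 libraries held more than all 4 NT libraries, which was also so in 43% of the windows. Their regions were shorter, with a median width in the interval of 2.23 and 2.08 kb against 15.5 and 11.3 kb in siOrc6 cells, and of 1.26 and 1.71 kb against 5.19 and 4.25 kb in siGl3 cells. SMARCA1 cover of the MYC gene itself was 24.1% and 66.8% in siGl3 H2O2, 97.5% and 100% in siOrc6 H2O2, and 100% in all 4 NT libraries.

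OGG1 regions of the interval were few in every group. There were 18 and 11 regions in siOrc6 H2O2, against 12 and 13 in siOrc6 NT, and 10 and 7 in siGl3 H2O2, against 16 and 12 in siGl3 NT. A single OGG1 siOrc6 H2O2 region of 183.2 kb was the widest of the interval. MYC itself was covered to 100% in all 8 OGG1 and all 4 Orc6 libraries.

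Knockdown of Orc6 was compared in the same way. The mean SMARCA1 share was 34.7% in siOrc6 and 22.7% in siGl3 libraries, 12.0 points higher with siOrc6 and higher in 3 of 4 pairs. In NT cells both siOrc6 libraries were above both siGl3 libraries, as in 36.1% of the windows, and in H2O2 cells they overlapped. The mean OGG1 share was 84.3% in siOrc6 and 82.7% in siGl3 libraries, a difference of 1.56 points. It was -6.29 points without OGG1 siOrc6 NT replicate 2 and -4.75 points without OGG1 siGl3 NT replicate 1. The deposited SMARCA1 siOrc6 lists carry a resubmission mark in their names that the SMARCA1 siGl3 lists lack, so siRNA and mark cannot be told apart.

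Relative to the rest of the genome, the SMARCA1 share was 10.4 points higher in siOrc6 than in siGl3 cells, with means of 31.0 and 20.6. For OGG1 the difference was 3.28 points, with means of 69.4 and 66.1. Replicate 2 had the larger covered share of the interval in 9 of the 10 groups, and in the labels that number is the batch. Within batch 1 the H2O2 difference over the 5 strata was 15.7 points, and within batch 2 it was 9.37 points.

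SMARCA1 regions lay almost wholly inside regions of OGG1 and Orc6. Most OGG1 and Orc6 bases lay outside SMARCA1 regions in most pairs of libraries. Of the SMARCA1 bases, 93.4% to 100% lay inside OGG1 regions of the same siRNA, treatment and replicate number in 8 pairs of libraries. Unrelated regions would share as much as the OGG1 share of the interval, which was 55.0% to 98.1% in these libraries, and the SMARCA1 value was above it by 1.37 to 38.4 points. In siGl3 cells 94.9% and 98.5% of SMARCA1 bases lay inside Orc6 regions with H2O2, and 96.9% and 100% without, which is 14.2 to 41.9 points above the Orc6 share of the interval. In reverse, SMARCA1 held 21.4% to 75.4% of the OGG1 bases. SMARCA1 held 28.7% and 29.3% of the Orc6 bases with H2O2, and 32.2% and 33.9% without. Orc6 held 77.1% and 84.4% of the OGG1 bases with H2O2, and 73.3% and 76.8% without, 0.12 to 18.3 points above the Orc6 share of the interval.

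Replicates matched each other better at the locus than over whole lists. The bases shared by both replicates were 31.9% to 95.9% of the bases covered by either in the interval, with a median of 60.8% over the 10 groups. Over whole lists the range was 18.6% to 57.8% and the median 37.8%, and the interval was higher in 10 of 10 groups. The lowest match in the interval was that of SMARCA1 siGl3 H2O2 and the highest that of OGG1 siGl3 H2O2. A larger covered share raises such a match by itself.

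Genes that work with MYC were counted in the same lists. MYC, picked for its regions, had one in 20 of 20 libraries, so no gene could exceed it. Of 12 MYC family members and partners, 12 had a region in both replicates of SMARCA1 siOrc6 H2O2 and 10 in SMARCA1 siOrc6 NT, where 70.4% and 42.1% of protein-coding genes did. In siGl3 cells the counts were 8 with H2O2 and 0 without, beside 49% and 11.6% of protein-coding genes. In OGG1 they were 12 with H2O2 and 10 without in siOrc6 cells (80.2% and 47.2% of protein-coding genes), and 12 and 12 in siGl3 cells (83.4% and 51.6%). In Orc6 they were 8 with H2O2 and 10 without, beside 57.4% and 45.7%. MAX, the partner through which MYC binds DNA, had a region in 19 libraries, as did the MYC competitor MXD1 and the repressor MGA. MYCN, the family member known from neuroblastoma, had one in 13 libraries and MYCL in 17.

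Of 24 known MYC target genes, 24 and 22 were occupied by SMARCA1 in siOrc6 H2O2 and siOrc6 NT cells, where 70.4% and 42.1% of protein-coding genes were. In siGl3 H2O2 and siGl3 NT cells SMARCA1 occupied 21 and 3, or 87.5% and 12.5%, beside 49% and 11.6% of protein-coding genes. OGG1 occupied 24 and 21 in siOrc6 cells with H2O2 and without (80.2% and 47.2% of protein-coding genes), and 24 and 23 in siGl3 cells (83.4% and 51.6%). Orc6 occupied 22 with H2O2 and 22 without, beside 57.4% and 45.7%. CAD, which starts pyrimidine synthesis, the glycolytic enzyme ENO1 and the Ran exchange factor RCC1 had a region in all 20 libraries. TERT, the catalytic subunit of telomerase, had the fewest, with 12. SMARCA1 siGl3 NT replicate 1 had the shortest of the 20 lists, with 6992 regions.

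Of 12 regulators of MYC, SMARCA1 occupied 12 and 8 in siOrc6 H2O2 and siOrc6 NT cells, beside 70.4% and 42.1% of protein-coding genes. In siGl3 H2O2 and siGl3 NT cells SMARCA1 occupied 5 and 1, or 41.7% and 8.33%, below the 49% and 11.6% of protein-coding genes. OGG1 occupied 12 and 8 in siOrc6 cells with H2O2 and without (80.2% and 47.2% of protein-coding genes), and 12 and 10 in siGl3 cells (83.4% and 51.6%). Orc6 occupied 8 with H2O2 and 9 without, beside 57.4% and 45.7%. FBXW7, the ubiquitin ligase subunit that marks MYC for breakdown, had a region in 13 libraries. The insulator protein gene CTCF had one in 19.

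The neighbours of the locus on chromosome 8 differed in how many libraries reached them. Of 15 listed, 8 had a region in all 20 libraries: CASC8, CASC21, CCAT1, CCDC26, GSDMC, CYRIB, ASAP1 and ADCY8. Over all 59098 genes of the table, 4.25% had one in all 20. POU5F1B had one in 4 libraries, PCAT1 in 3 and CCAT2 in 5. CASC8 and CASC21 overlap in the table, so a region can count for both of them. MIR1208, which the table places beyond the end of PVT1, had one in 18.

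By the percent of its body and 10 kb on each side inside regions, the protein-coding genes most like MYC across the 20 libraries were MCTS2 (Spearman's rho 0.95), GPAA1 (0.94), WBP1 (0.93), BCL2L1 (0.92) and MOGS (0.92). Those most like PVT1 were HIVEP3 and LIPC (0.98 each), NF2 and SLC39A11 (0.98 each) and LDLRAD4 (0.97). These are the highest of 18366 genes, and the libraries share antibodies and list lengths, so the values describe likeness of cover only. MCTS2 and BCL2L1 are neighbours on chromosome 20, and WBP1 and MOGS on chromosome 2.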

How the data were processed

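The 20 deposited region lists give, per the labels and the file layout, the position of each region called in 1 library with its summed and its highest signal. The authors' signal values are whole numbers. Their scaling and control are not given in the labels, so signal served to rank regions within a list and nothing else. Depth is unknown, since the lists hold no read counts. The submitters' processing notes name the build hg38 and, without roles, SEACR 1.1, Bowtie2, SAMtools, bedtools, DiffBind, DESeq2 and deepTools. The other 14 samples were not analysed here. The sample titles gave groups and replicate numbers.

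Gene positions came from the RefSeq table of GRCh38.p14. The genome span was the farthest region end of each of chromosomes 1 to 22 and X, 3.03 Gb in sum. The covered share is the percent of bases inside regions. Shares are compared by their values, pairs and overlap, and the planned exact permutation tests (threshold 0.05) are not reported, since the locus was chosen on the same regions. A gene was occupied where a region touched it or 1 kb on each side, counted over all 59098 genes. Same-numbered libraries share a batch in the labels and were taken as pairs. Lists were also cut to equal covered bases or equal numbers of regions. Genes, lists and alternatives were chosen with earlier results of these data known. The named genes are MYC, PVT1, other genes overlapping the interval, the 10 most covered stretches, the 5 genes of most like cover and the 4 lists, of which 1 member is not reported here. The 5 clusters of highest signal, the parts of PVT1 and the members singled out in lists were chosen after their values were seen. Python 3.11.15, numpy 2.4.6, pandas 2.3.3, scipy 1.17.1 and matplotlib 3.10.9 were used.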

Additional observations from a re-analysis of the deposited data

Results flagged for a closer look

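The difference in OGG1 cover of the interval between siOrc6 and siGl3 cells had opposite directions in the treatments when read as the plain covered share, which stood at 94.2% to 98.1% in all H2O2 libraries. In H2O2 cells the 2 pairs of siOrc6 and siGl3 libraries of the same replicate number differed by -3.31 and -2.78 points. In NT cells they differed by 3.07 and 9.26 points. The mean differences were apart by -9.21 points, H2O2 minus NT, and the difference between treatments was not tested. Relative to the rest of the genome the direction was shared, with mean differences of 1.88 points in H2O2 cells, where the pairs gave -0.70 and 4.45, and 4.67 points in NT cells.

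A deposited Orc6 list of the whole series, named for siGl3 NT cells and of unstated origin, was not used in the comparisons. It held 12 regions in the interval, which covered 44.8% of it against 2.63% of the rest of the genome. One of them lay over the MYC start. Of its bases there, 80.6% lay in the regions of Orc6 siGl3 NT replicate 1 and 92.3% in those of replicate 2.

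The authors' deposited tables of SMARCA1 windows of fixed length, named up and ns, were also left out of the comparisons, since the sources used here do not say which samples they compare. For H2O2 siOrc6, the authors' deposited table named up placed 5 windows in the interval and the one named ns placed 45, of 12359 and 31524 windows in all. That is 10.7 and 96.6 windows per Mb of the interval, against 4.08 and 10.4 per Mb of the rest of the genome. For NT siOrc6, the authors' deposited table named up placed 3 windows in the interval and the one named ns placed 8, of 7045 and 5317 in all. That is 6.44 and 17.2 windows per Mb of the interval, against 2.32 and 1.75 per Mb of the rest. A window overlapped MYC in both of the authors' deposited tables for H2O2 siOrc6 and in the table named up for NT siOrc6.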

How the results depend on the processing

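Over 209 alternative values of the share differences the direction held in 183 and turned in 26, none of them over the 5 strata. Size depended strongly on list length. At equal covered bases the difference with H2O2 was 0.36 points over the 5 strata, 8.91 for OGG1 and -13.2 for SMARCA1, against 12.5, 25.6 and -2.41 in the full lists. The permutation tests that had been planned for the shares use the regions on which the locus was chosen, and in 8 of 10 the smallest p they allow, 0.0556, misses the threshold, so they bear on no statement here.

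With the window running from 500 kb before MYC to 500 kb after PVT1, the SMARCA1 share differed by 1.40 points for H2O2 and by -0.0803 for siOrc6, and relative to the rest of the genome by 0.14 and -1.67. With regions per Mb in place of covered bases, the SMARCA1 difference with H2O2 was 82.6 (68.3 relative to the rest), that with siOrc6 was -21.5 (-20.7), and the OGG1 difference with H2O2 was -3.76 (-33.2). Region number and covered bases are different measures. The OGG1 difference with siOrc6 was -7.10 points, also relative to the rest, with equal covered bases, and -1.76 (-1.25) with as many regions of highest maximum signal as the shortest list. The cause of these shifts was not tested.

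Leaving out libraries or a replicate number moved the share difference with H2O2 between 9.37 and 15.7 points over the 5 strata, between -10.5 and 5.72 for SMARCA1 and between 11.9 and 39.4 for OGG1. With siOrc6 it moved between 7.03 and 17.0 points for SMARCA1 and between -6.29 and 9.41 for OGG1. Relative to the rest of the genome the ranges were 1.52 to 7.31, -11.1 to 3.72 and -1.31 to 19.7 points with H2O2, and 6.01 to 14.8 and -3.95 to 10.5 points with siOrc6. With the replicate block the difference over the 5 strata is by construction the same 12.5 points.

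Occupancy of MYC and PVT1 is at 20 of 20 libraries and could not vary, so alternatives say nothing of its stability. The MYC start stayed in a region in 20 libraries and the PVT1 start in 18 under 4 cuts of list length, which were chosen after seeing the data. Depth is unknown, and no interval for counting error can be given.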
